A study of Drosophila melanogaster with 36 samples.

Results

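The genes described here are 6 regulators of notum patterning, the GATA factor gene pnr, its cofactor gene ush, the LIM homeobox gene tup, the Msh homeobox gene Dr and the paired Bar homeobox genes B-H1 and B-H2. They were taken as a list of symbols, and all 6 were matched to a FlyBase ID among the 17807 genes of the RNA count tables. All 6 passed the filter on low counts that left 11198 genes for testing. RNA-seq was done on cells sorted from wing and haltere imaginal discs of wandering third-instar (L3) Drosophila melanogaster larvae raised at 25 °C. Cells of the genotype yw;tsh.gal4;uas-kash.GFP were marked by a GFP at the nuclear envelope under tsh-Gal4, a driver of proximal disc cells. Cells of the genotype yw;nub.gal4;uas-kash.GFP were marked in the same way under nub-Gal4, a driver of the distal appendage primordium. The 4 groups, wing tsh, wing nub, haltere tsh and haltere nub, had 2 libraries each. The domains came from different fly lines, so line and domain cannot be told apart, and the tsh cells include hinge and body wall cells beside those of the notum.

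The notum is the dorsal body wall of the thorax and forms from the proximal part of the wing disc, while the corresponding region of the haltere disc gives the much smaller dorsal body wall of the next segment. In the wing disc pnr acts in the medial notum next to the dorsal midline, where it activates proneural genes and wg. The Ush protein, a Friend of GATA zinc finger factor, binds Pnr and restrains this activation. The tup product, the fly Islet factor, is needed for notum identity. The Bar genes act in the anterior notum in bristle patterning and are also known for their roles in the eye and the distal leg. Dr is known as msh, the fly member of the Msx family, and is used in dorsal cells of the wing disc as well as in the lateral body wall.

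Totals were 15110163 to 17705451 counts in 6 libraries and 92342738 and 96525031 in the haltere nub libraries, so that depth, and any sequencing batch that goes with it, cannot be told apart from haltere nub cells. A single read was worth 0.0564 to 0.0658 CPM (counts scaled to a common library size by the TMM method) in the shallower libraries and 0.0102 and 0.0108 CPM in the haltere nub libraries. Wing tsh replicate 1 stood apart, with 5111 genes between 1 and 5 CPM against 1805 to 2315 in the other 7 libraries. The marker genes followed the labels. The driver gene tsh stood at 868 ± 41.9 and 727 ± 53.0 CPM (SD, n = 2) in haltere and wing tsh cells, and nub at 1039 ± 3.27 and 1619 ± 45.3 CPM in haltere and wing nub cells. Ubx, the haltere Hox gene, stood at 4.50 to 37.1 CPM in the wing groups and at 794 and 2746 CPM in the haltere groups. No label ties the replicates to separate cohorts of larvae, and the tests therefore measure the spread between these libraries, which may be technical.

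**Figure D1:**
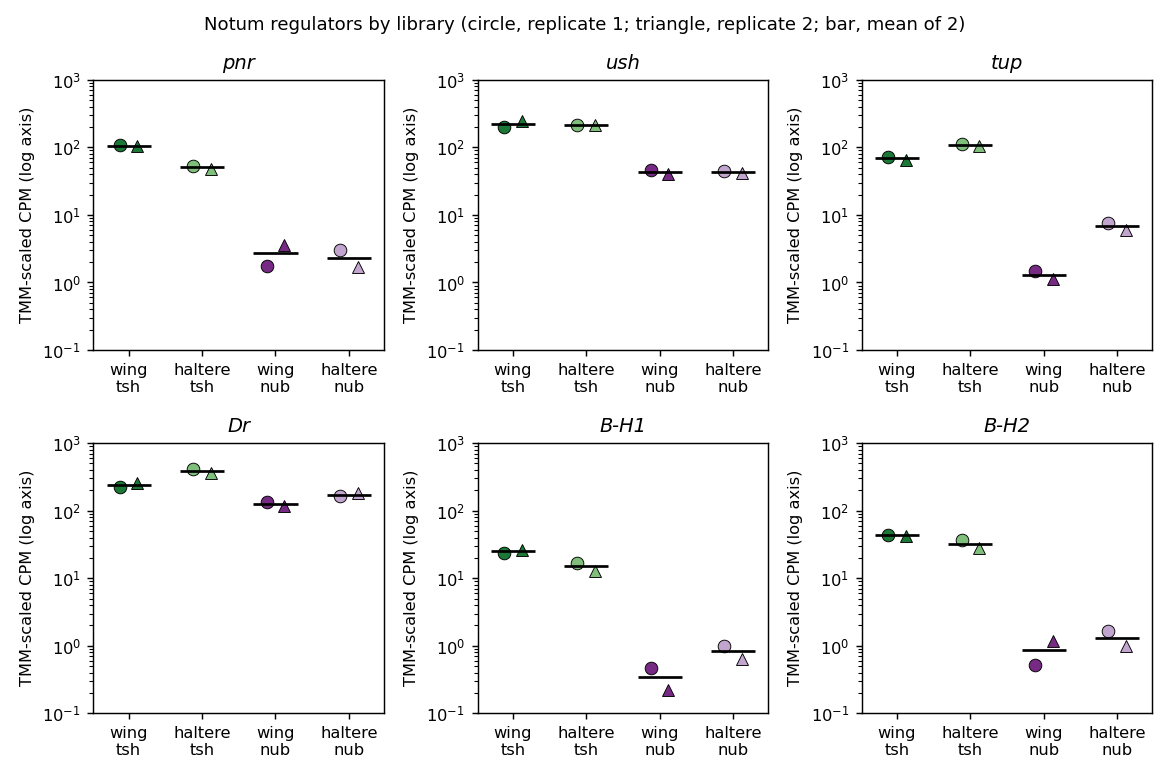
TMM-scaled CPM on a log axis for each regulator in the 8 libraries, with circles for replicate 1, triangles for replicate 2 and bars for the mean of 2. All 6 genes were higher in each tsh library than in either nub library of the same disc, with the narrowest gap for Dr.

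The medial regulator pnr (FBgn0003117, chromosome 3R, 16026079 to 16041796 of the Release 6 assembly) was a gene of tsh cells in both discs. Its level was 107 and 104 CPM in replicates 1 and 2 of wing tsh cells, and 53.2 and 48.1 CPM in those of haltere tsh cells. In nub cells it stood at 1.76 and 3.61 CPM in the wing and at 2.99 and 1.67 CPM in the haltere disc. Wing tsh cells were thus the highest group and haltere tsh cells the next, without overlap, while the nub groups of both discs overlapped. In the quasi-likelihood test of edgeR, with p adjusted by Benjamini and Hochberg's method over all 11198 genes, pnr was lower in wing nub than in wing tsh cells by a log2 fold change of -5.28 ± 0.33 (SE), with an adjusted p of 2.28e-05. In the haltere disc the change was -4.43 ± 0.29, with an adjusted p of 2.16e-05.

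Its cofactor gene ush (FBgn0003963, 2L, 476220 to 540560) showed a shallower step. Its level was 203 and 246 CPM in wing tsh and 216 and 212 CPM in haltere tsh replicates 1 and 2. In nub cells it remained at 46.3 and 39.9 CPM in the wing and at 45.3 and 41.2 CPM in the haltere disc. The tsh groups overlapped each other, as did the nub groups, and every tsh library was above every nub library. The log2 fold changes from tsh to nub cells were -2.38 ± 0.12 in the wing (adjusted p = 5.2e-08, edgeR) and -2.31 ± 0.11 in the haltere disc (adjusted p = 4.25e-08). The span of ush also holds the gene cbt and the noncoding genes lncRNA:CR46258 and lncRNA:CR46259, and whether the counting used strand is not given in the sources used here. The counts of cbt went from 505 to 4264 over the libraries, and those of the noncoding genes reached 1082 and 285.

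The Islet gene tup (FBgn0003896, 2L, 18859507 to 18881261) was highest in haltere tsh cells, at 113 and 106 CPM. Wing tsh libraries stood at 72.9 and 65.8 CPM. Haltere nub libraries kept 7.71 and 5.93 CPM, and wing nub libraries 1.47 and 1.13 CPM, which came from 25 and 20 counts. None of the 4 groups overlapped. The log2 fold change from tsh to nub cells was -5.74 ± 0.19 in the wing disc (adjusted p = 2.84e-09, edgeR), at rank 20 of all genes by p, and in the haltere disc tup was 16.0-fold lower in nub cells (adjusted p = 2.53e-09), with a 95% interval of the log2 fold change from -4.30 to -3.70. The span of tup also holds mir-4946, with 0 to 36 counts a library.

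The Msh gene Dr (FBgn0000492, 3R, 29556386 to 29565244) was the member with the smallest step between domains. It stood at 411 and 361 CPM in haltere tsh, 227 and 258 in wing tsh, 165 and 182 in haltere nub and 132 and 116 CPM in wing nub replicates 1 and 2. The groups did not overlap, and neighbours in that order differed by ratios of 1.59, 1.40 and 1.40. Dr was lower in nub than in tsh cells by -0.97 ± 0.11 on the log2 scale in the wing disc (adjusted p = 7e-05, edgeR) and by -1.15 ± 0.11 in the haltere disc (adjusted p = 1.02e-05).

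The Bar genes lie on the X chromosome, B-H2 (FBgn0004854) at 17314581 to 17324175 and B-H1 (FBgn0011758) at 17397478 to 17403278, 73.3 kb apart. B-H1 had 23.8 and 26.5 CPM in wing tsh and 16.9 and 13.0 CPM in haltere tsh replicates 1 and 2. In nub cells it was at 0.47 and 0.226 CPM in the wing, from 8 and 4 counts, and at 1.01 and 0.64 CPM in the haltere disc, from 99 and 59 counts. These groups did not overlap, and the wing nub values rest on too few reads to place them closely. B-H2 had 44.1 and 42.9 CPM in wing tsh and 37.3 and 27.9 CPM in haltere tsh cells. It fell to 0.528 and 1.18 CPM in wing nub and to 1.64 and 0.998 CPM in haltere nub cells, where the discs overlapped.

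B-H1 had the largest fold change of the 6 in the wing disc, at -6.17 ± 0.34 on the log2 scale (adjusted p = 1.57e-07, edgeR), at rank 42 of 11198 genes by size. B-H2 changed by -5.65 ± 0.33 (adjusted p = 1.8e-06). In the haltere disc the changes were -4.17 ± 0.25 for B-H1 (adjusted p = 2.68e-07) and -4.62 ± 0.26 for B-H2 (adjusted p = 9.85e-07). How the counting treated reads that match both paralogs is not given in the sources used here. Of the reads counted for the pair, B-H1 held 35.0% (95% exact Clopper-Pearson interval 32.2% to 37.9%) and 38.2% (35.4% to 41.1%) in wing tsh replicates 1 and 2. The share was 31.2% (28.0% to 34.5%) and 31.7% (28.3% to 35.3%) in haltere tsh cells. In haltere nub cells it was 38.1% (32.1% to 44.3%) and 39.1% (31.2% to 47.3%). Only 17 and 25 reads of the pair were counted in the wing nub libraries, with shares of 47.1% (23.0% to 72.2%) and 16.0% (4.54% to 36.1%). The intervals cover counting error only.

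Across the list, 6 of 6 genes were lower in nub than in tsh cells in the wing disc, where 13.8% of all tested genes were called, 7.88% lower and 5.96% higher. In the haltere disc 6 of 6 were lower too, where 24.9% were called, 15.0% lower and 9.96% higher. The median log2 fold change of the 6 was -5.47 in the wing and -4.08 in the haltere disc, against -0.01 and -0.01 over all genes tested. The 6 were chosen with earlier results of these data known, so these counts and medians only describe the list. Every one of these 12 calls was kept under each alternative tried, including without wing tsh replicate 1. In these bulk samples, fewer cells of a type and less RNA per cell cannot be told apart.

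Markers of other cell types moved between the same groups. Of 7 myoblast markers 5 were lower in wing nub and 4 in haltere nub cells, among them stumps (-2.93 ± 0.22 in the wing and -2.31 ± 0.21 in the haltere disc) and zfh1 (-3.27 ± 0.27 and -1.63 ± 0.26), while kirre was higher in both. The call of kirre in the wing disc (0.43 ± 0.11) was lost without wing tsh replicate 2, without either wing nub library and with only the groups compared. The summed level of the 7 was 170 and 172 CPM in wing nub and 232 and 228 CPM in haltere nub libraries, against 208 to 238 CPM in wing tsh and 139 to 143 CPM in haltere tsh libraries, with no marker at 0 counts. Most of that sum came from Mef2 and kirre, at 113 ± 2.28 and 111 ± 3.16 CPM in haltere nub and 97.2 ± 1.84 and 21.7 ± 0.715 CPM in haltere tsh cells. Mef2 was not called, and zfh1 went from 29.3 ± 2.49 CPM in wing tsh to 3.03 ± 1.13 CPM in wing nub cells. Of the 6 hemocyte markers all but NimC1 were tested, and 2 were lower in wing nub and 1 in haltere nub cells. The 6 summed to 8.98 to 19.6 CPM in nub and 28.1 to 72.3 CPM in tsh libraries. Col4a1 supplied most of each tsh sum. Its mean fell from tsh to nub cells, from 20.7 to 3.79 CPM in the haltere and 34.5 to 6.78 CPM in the wing disc. In the haltere disc the means of Hml (1.19 to 4.91 CPM), Sr-CI (1.94 to 3.47) and NimC1 (0.0615 to 0.217) rose instead, without a call. Those of srp and Pxn fell there, and in the wing disc all 6 fell. In wing tsh replicates 1 and 2 Hml stood at 10.5 and 0 CPM and Pxn at 5.40 and 0.624 CPM. Their wing nub means were 3.15 and 1.67 CPM, so the fall of Hml and Pxn rests on wing tsh replicate 1. With only the groups compared, 1 marker was higher in haltere nub cells. Of the 6, 1 was at 0 counts in wing tsh replicate 2. In the wing disc 1 of them was lower without wing nub replicate 1, and in the haltere disc 2 were without either wing tsh library, with DESeq2 and with only the groups compared. The 5 genes listed as tracheal markers (trh, dysf, btl, vvl and bnl) summed to 583 to 1747 CPM in nub and 286 to 366 CPM in tsh libraries. Of these 5, 2 were higher and 3 lower in nub cells of each disc. The gene vvl made up most of that sum, at 1482 ± 71.6 CPM in wing nub and 189 ± 13.7 CPM in wing tsh cells, whereas dysf was at 1.83 ± 0.843 and 94.2 ± 6.94 CPM there and btl at 1.17 ± 0.659 and 11.1 ± 0.0869 CPM. The 5 neuron and glia markers summed to 363 to 406 CPM in nub and 403 to 454 CPM in tsh libraries. Most of that sum came from elav and nrv2. From tsh to nub cells the mean of elav rose from 147 to 189 CPM in the haltere and 143 to 167 CPM in the wing disc. That of nrv2 fell from 263 to 150 and from 223 to 206 CPM. The mean of moody fell as well, from 37.6 to 22.9 and from 38.9 to 26.0 CPM. Group means of nSyb and repo were only 0.398 to 2.52 CPM. In wing nub cells 1 of the 5 was lower, and in haltere nub cells 1 was higher and 2 were lower. The wing count was not kept without wing tsh replicate 2. The higher call in the haltere disc was not kept without either haltere tsh library or haltere nub replicate 2. The part of all these markers in the results on the regulators was not tested.

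**Figure D2:**
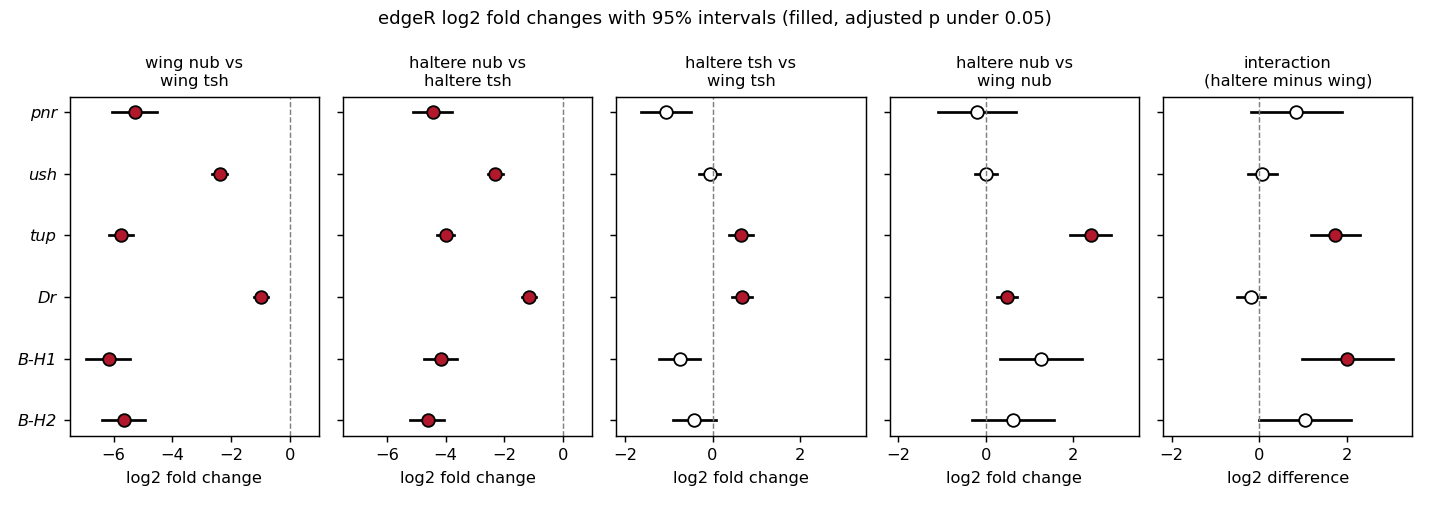
Log2 fold changes from edgeR with 95% intervals for each regulator in the 4 comparisons of 2 groups and in the interaction; filled points have an adjusted p under 0.05. All 12 nub against tsh changes are filled and below 0, tup and Dr are above 0 in both comparisons of haltere with wing, and tup and B-H1 are filled in the interaction.

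What remained in nub cells divided the list. Expressed against the tsh cells of the same disc, ush kept 19.2% of its level in wing nub and 20.2% in haltere nub cells, and Dr kept 51.1% and 44.9%. The other members kept far less in wing nub cells, with 2.55% for pnr, 1.87% for tup, 1.38% for B-H1 and 1.97% for B-H2. The tsh gene itself, whose driver marked the proximal cells, kept 2.13% in wing nub cells. In haltere nub cells pnr kept 4.60%, tup 6.24%, B-H1 5.52% and B-H2 4.05%, where tsh kept 3.05%. In single haltere nub libraries tup stood at 7.05% and 5.42% and tsh at 3.40% and 2.70%. The part that proximal cells in the nub sort have in these levels was not tested.

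**Figure D3:**
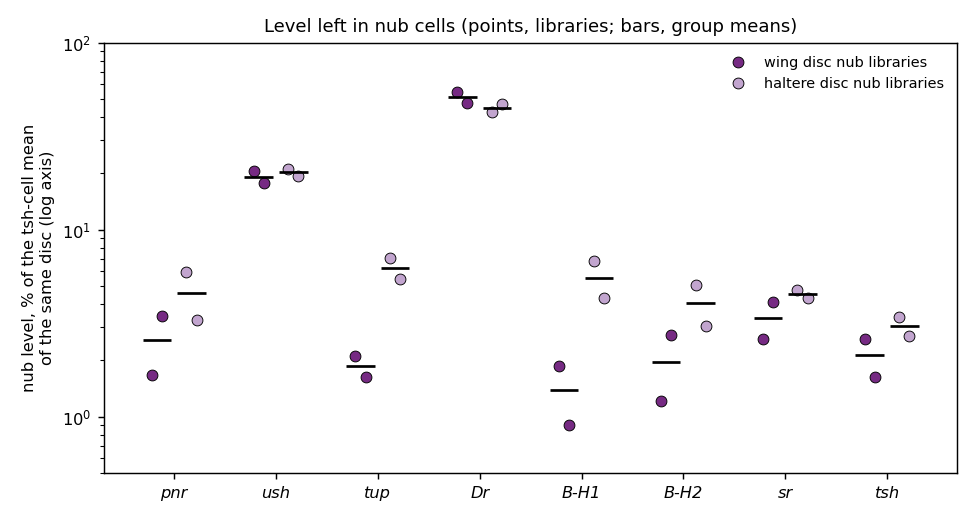
Level in nub cells as a percentage of the mean level in tsh cells of the same disc, on a log axis, for the 6 regulators, the tendon gene sr and the driver gene tsh; points are libraries and bars are group means. Dr and ush lie well above the others, and tup, B-H1, B-H2, sr and tsh lie higher in both haltere nub libraries than in either wing nub library.

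The comparison of discs within tsh cells asked how the proximal regulators differ between the segments. Here tup was higher in the haltere, with 109 ± 5.45 against 69.4 ± 5.05 CPM (log2 fold change 0.66 ± 0.12, adjusted p = 0.0124, edgeR). Dr was higher too, with 386 ± 35.3 against 242 ± 21.6 CPM (0.67 ± 0.11, adjusted p = 0.00371). These 2 calls of 6 stand beside 3.26% of all tested genes called, with 1.04% of all tested genes called higher in the haltere. The call of tup was lost without haltere tsh replicate 1 (adjusted p = 0.146) or replicate 2 (adjusted p = 0.0617), and that of Dr without haltere tsh replicate 1 (adjusted p = 0.0734).

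No member was called lower in haltere tsh cells, where 2.22% of all genes were. The pnr level was 50.6 ± 3.63 CPM in haltere tsh against 105 ± 2.08 CPM in wing tsh cells, a log2 fold change of -1.05 ± 0.24 with an adjusted p of 0.0722. It passed the threshold when only the tsh libraries were fitted (-1.05 ± 0.09, adjusted p = 0.000833), in DESeq2 (adjusted p = 0.000452) and with the haltere nub libraries thinned to the depth of the others (adjusted p = 0.0197). It also passed with any single nub library left out. It did not pass with the size factors of DESeq2, with no filter or with the replicate number as a block (adjusted p = 0.0973, edgeR). Nor did it pass with any single tsh library left out. B-H1 stood at 14.9 ± 2.80 against 25.1 ± 1.96 CPM (-0.75 ± 0.22, adjusted p = 0.0957) and passed where no genes were filtered (adjusted p = 0.0275). B-H2 stood at 32.6 ± 6.66 against 43.5 ± 0.886 CPM (-0.42 ± 0.22, adjusted p = 0.346). The level of ush was 214 ± 2.56 against 224 ± 30.4 CPM, with a difference of -0.07 on the log2 scale and a 95% interval from -0.30 to 0.17.

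Beside these values, markers of the myoblasts that underlie the notum epithelium differed between the tsh groups. Of 7 myoblast markers 5 were lower in haltere tsh cells, among them zfh1 (-2.32 ± 0.25) and kirre (-1.20 ± 0.12), and 3 were lower without wing tsh replicate 1 and 2 without either haltere tsh library. The summed level of the list was below that of wing tsh in both haltere tsh libraries, as given above. No hemocyte and no neuron or glia marker was called between the tsh groups, and of the tracheal ones vvl was lower (-0.77 ± 0.10). Without wing tsh replicate 2, 2 hemocyte markers and 1 neuron or glia marker were lower, and 1 hemocyte marker was with DESeq2 or no filter. A tracheal marker was higher without haltere tsh replicate 1, without wing tsh replicate 1, with DESeq2 and with no filter. The part of this difference in the results on the regulators was not tested.

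In nub cells tup gave the clearest difference between discs. The mean was 6.82 ± 1.26 CPM in the haltere and 1.30 ± 0.24 CPM in the wing, a log2 fold change of 2.40 ± 0.21 (adjusted p = 1.85e-05, edgeR). The call was kept under every alternative tried, with a log2 fold change of 2.37 when the haltere nub libraries were thinned. Beside it, the tsh gene was higher in haltere nub cells by 0.78 ± 0.19 (adjusted p = 0.0194). Of the label checks tsh and Ubx, both called higher in haltere nub cells, 1 call was lost without haltere nub replicate 1, without wing nub replicate 2 and without either wing tsh library. Of the genes listed as tracheal markers 1 was higher and 3 were lower in haltere nub cells. The lower ones were vvl at 552 ± 58.8 against 1482 ± 71.6 CPM, trh at 65.8 ± 4.36 against 197 ± 3.31 CPM and bnl at 3.47 ± 0.0118 against 14.9 ± 0.84 CPM. The means of btl and dysf went the other way. They were 3.17 ± 0.280 against 1.17 ± 0.659 CPM for btl and 3.21 ± 0.462 against 1.83 ± 0.843 CPM for dysf. With DESeq2, with its size factors and with no filter 2 tracheal markers were higher. Of the 7 myoblast markers kirre was called higher (0.73 ± 0.10) and none lower, while the median log2 fold change of the list was -0.54. Mef2 also had a higher mean in haltere nub cells, whereas twi, htl, stumps, zfh1 and Him had lower ones. With DESeq2, with its size factors and with only the groups compared 2 were higher. With no filter and with haltere nub thinned 1 was lower. The count of higher ones was not kept without either wing tsh library. Of the 5 neuron and glia markers 1 was lower. The part of tsh and of these markers in the difference of tup was not tested.

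Dr was higher in haltere nub cells as well, at 173 ± 12.1 against 124 ± 11.8 CPM (0.48 ± 0.11, adjusted p = 0.00733). This call was lost without haltere nub replicate 2 (adjusted p = 0.0842) or wing nub replicate 2 (adjusted p = 0.0618). Of all tested genes 23.3% were called here, 9.72% higher and 13.6% lower, beside 2 members higher and none lower. B-H1 was at 0.825 ± 0.261 against 0.348 ± 0.173 CPM (1.25 ± 0.43, adjusted p = 0.056), and passed with the haltere nub libraries thinned (1.65 ± 0.51, adjusted p = 0.0371). It also passed with no filter (adjusted p = 0.017), without haltere nub replicate 2 (adjusted p = 0.036) and without wing tsh replicate 1 or 2 (adjusted p = 0.0403 and 0.0442). B-H2 (0.62 ± 0.42, adjusted p = 0.323), pnr (-0.21 ± 0.38, adjusted p = 0.747) and ush (0.01 ± 0.11, adjusted p = 0.978) did not pass the test. The 95% interval of the ush difference ran from -0.24 to 0.25, and that of pnr from -1.10 to 0.68.

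The interaction asked whether the step from tsh to nub cells differed between discs. It did for tup, whose decrease was smaller in the haltere disc by 1.74 ± 0.26 on the log2 scale (adjusted p = 0.0015, edgeR), and for B-H1, by 2.00 ± 0.47 (adjusted p = 0.0174). These 2 calls of 6 stand beside 15.4% of all genes called, 7.32% in that direction and 8.10% in the other. The call of tup was kept under every alternative, whereas that of B-H1 was lost without haltere nub replicate 1 (adjusted p = 0.0628) or wing nub replicate 2 (adjusted p = 0.0886). The estimate for B-H2 was 1.04 ± 0.47 (adjusted p = 0.156) and that for pnr 0.85 ± 0.44 (adjusted p = 0.225). The difference between the paralogs was not tested. For ush the estimate was 0.07 with a 95% interval from -0.27 to 0.41, and for Dr -0.19 with an interval from -0.51 to 0.14.

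Around pnr, the genes for its cofactors, listed here together with ap, showed little change. None of Chi, ap, tou, osa and CtBP, which encode a LIM-domain binding protein, a LIM homeobox factor, chromatin factors and a corepressor, was called between domains in the wing disc or between discs, apart from 1 call in the wing disc without wing tsh replicate 2. In the haltere disc only ap was higher in nub cells (0.29 ± 0.09, adjusted p = 0.0312), a call lost without any single haltere library and with no filter. In that comparison 2 of the 5 were higher without either wing tsh library, with DESeq2, with its size factors and with only the groups compared. Genes that Pnr is known to act on, or that act with them in bristle selection, went several ways, and l(1)sc, at 0.117 to 1.60 CPM over the libraries, was not among the 7 of 8 tested. The tendon precursor gene sr was lower in nub cells of both discs, by -4.89 ± 0.16 in the wing and -4.46 ± 0.15 in the haltere disc. It was also lower in haltere tsh than in wing tsh cells, at 45.2 ± 0.673 against 96.5 ± 3.29 CPM (-1.09 ± 0.12, adjusted p = 0.000312, edgeR), the 1 call of the list there, against 3 without wing tsh replicate 2 and 2 with DESeq2 or haltere nub thinned. The Wnt gene wg was higher in nub cells, by 1.62 ± 0.13 in the wing and 3.04 ± 0.14 in the haltere disc. The proneural genes ac (1.55 ± 0.16) and sc (1.20 ± 0.12) were higher in haltere nub than in haltere tsh cells, and in the wing disc neither was called (0.16 ± 0.17 and -0.05 ± 0.12). The interaction was called for both, at 1.40 ± 0.23 for ac and 1.26 ± 0.17 for sc. Among all tested genes 5.96% were higher and 7.88% lower in wing nub cells, and 9.96% and 15.0% in haltere nub cells. In all, 1 of 7 genes of this list was higher and 2 lower in wing nub cells, against 4 and 2 in haltere nub cells. Without wing nub replicate 1, 2 were higher and 1 lower in the wing disc, without wing nub replicate 2, 1 was lower, and without wing tsh replicate 1, 2 were higher.

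The Iroquois genes ara, caup and mirr, which pattern the lateral notum, and the Pax genes eyg and toe were lower in wing nub than in wing tsh cells in 5 of 5 cases, with a median of -1.75. Of all tested genes 7.88% were lower there, and 15.0% were lower in haltere nub than in haltere tsh cells. In haltere nub cells ara (-2.92 ± 0.10), caup (-3.34 ± 0.09) and mirr (-1.86 ± 0.08) were lower, whereas eyg was higher (0.61 ± 0.11) and toe was not called (0.06 ± 0.14). In tsh cells eyg (-1.26 ± 0.11) and toe (-1.12 ± 0.15) were lower in the haltere, and the Iroquois genes were not called, with estimates between -0.28 and -0.005. Among all tested genes 5.96% were higher in wing nub and 9.96% in haltere nub cells. Of the 10 genes tested of 11 in the EGFR and Dpp pathways, which act upstream of the notum genes, 4 were higher in wing nub cells, among them pnt (0.61 ± 0.09) and aos (1.07 ± 0.10). In haltere nub cells 2 were, the same pnt (1.28 ± 0.09) and aos (0.61 ± 0.10), and 4 without either wing tsh library, which also gave 2 lower ones. With DESeq2 4 were higher there, and with only the groups compared 5 were higher and 2 lower in the haltere disc and 2 higher in the wing disc. The EGFR ligand gene vn was lower in haltere tsh than in wing tsh cells (-0.72 ± 0.08, adjusted p = 0.000312, edgeR). No gene of this list was higher there, but 1 was without wing tsh replicate 2, with DESeq2 and with no filter.

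Among relatives of the members, the GATA gene grn was lower in nub cells of both discs (-2.89 ± 0.10 in the wing and -4.06 ± 0.11 in the haltere), and GATAd, at 102 to 114 CPM in the 8 libraries, was not called in any of the comparisons. Of the 5 GATA genes, pnr included, 4 were lower in wing nub cells, but 2 without wing nub replicate 1. Those calls included srp and GATAe, which stood at 9.70 and 4.79 CPM in wing tsh replicate 1 and at 3.75 and 0.749 CPM in replicate 2. Of all tested genes 7.88% were lower in wing nub and 15.0% in haltere nub cells. Of 8 tested NK and Bar homeobox genes among 12, Dr and the Bar genes included, 6 were lower in nub cells of each disc. The other 3 were C15 (-5.14 ± 0.28 in the wing and -4.36 ± 0.24 in the haltere), H2.0 (-5.38 ± 0.39 and -4.46 ± 0.32) and NK7.1. Like the Bar genes, C15 and al also act in the distal leg. Here al was higher in nub cells of both discs, by 2.35 ± 0.13 in the wing and 1.81 ± 0.16 in the haltere, opposite in sign to C15 and Bar.

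**Figure D4:**
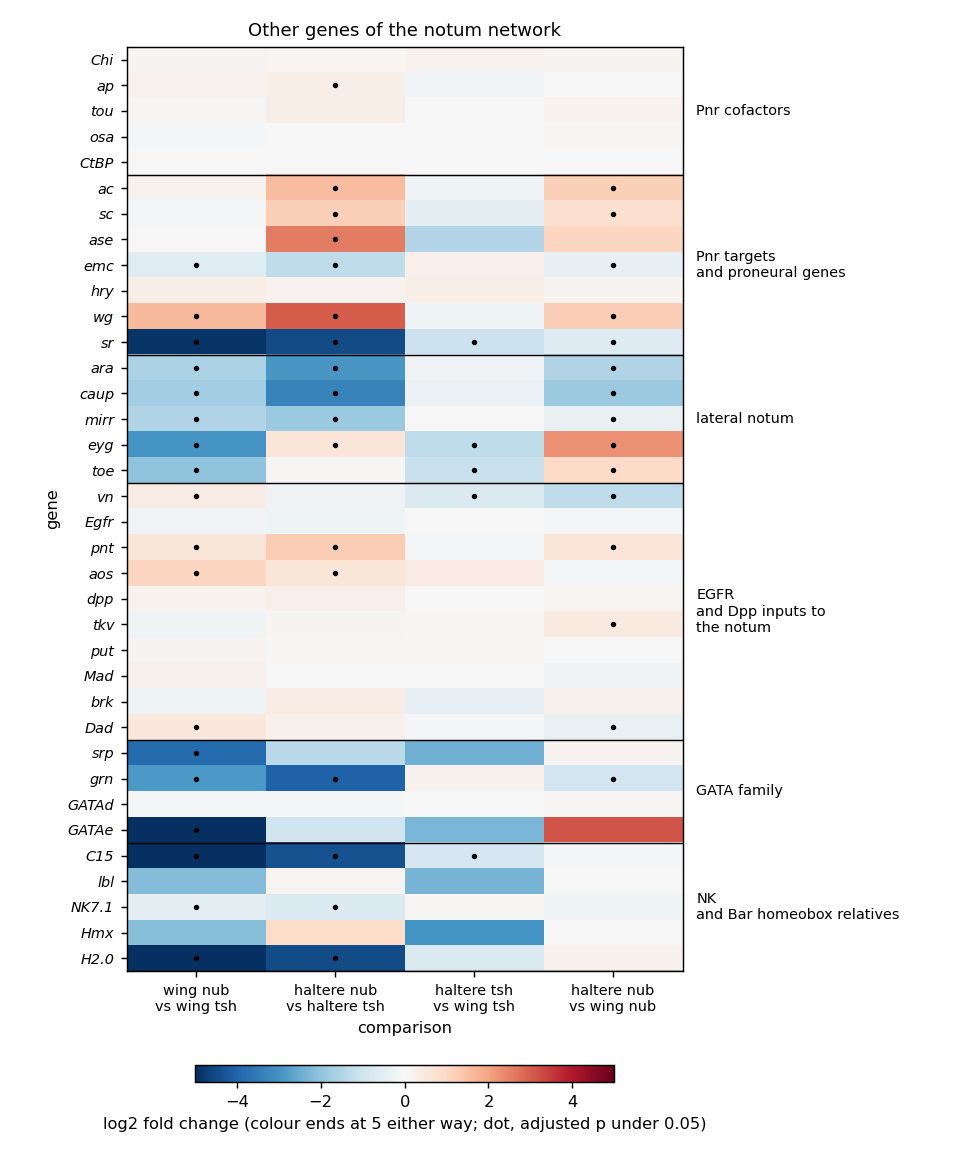
Log2 fold changes of the other tested genes of 6 lists (rows) in the 4 comparisons of 2 groups (columns); colour is the log2 fold change and a dot marks an adjusted p under 0.05. The sr, grn, C15 and H2.0 rows are lower in nub cells of both discs, and eyg is lower in wing nub but higher in haltere nub cells.

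The gene with the profile nearest to pnr, among the 7395 tested genes of at least 5 CPM on average, was sr. Likeness was measured as the root mean square difference of log2(CPM + 0.5), each gene centred on its mean over the 8 libraries, and sr differed from pnr by 0.24 log2 units, the retinal determination gene eya by 0.28 and Reck by 0.30. B-H2 ranked 4 for pnr, and pnr ranked 1 for B-H2 (0.32), ahead of eya and Reck. B-H1 was nearest to H2.0 (0.29), Reck (0.32) and ImpL2 (0.34), and its paralog B-H2 ranked 5 (0.37). In wing nub replicates 1 and 2 B-H1 stood at 0.47 and 0.226 CPM and H2.0 at 0.587 and 0.226 CPM. These values are near or below the added 0.5, so the constant and a few reads enter these ranks. The nearest genes to tup were pyr (0.36), which encodes an FGF ligand, Tig (0.37), which encodes a matrix protein, and CG5966 (0.39), and no other member came nearer than rank 20. Those nearest to ush were Nhe2 (0.17), Men (0.17) and CG13539 (0.22), and pnr ranked 5686 there, since the step of pnr was much steeper. Dr had its nearest profiles in comm (0.12), CG10527 (0.17) and CG14696 (0.18). The 8 values of a profile share 4 groups, and the step between domains dominates most of them, so that likeness here is a description.

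**Figure D5:**
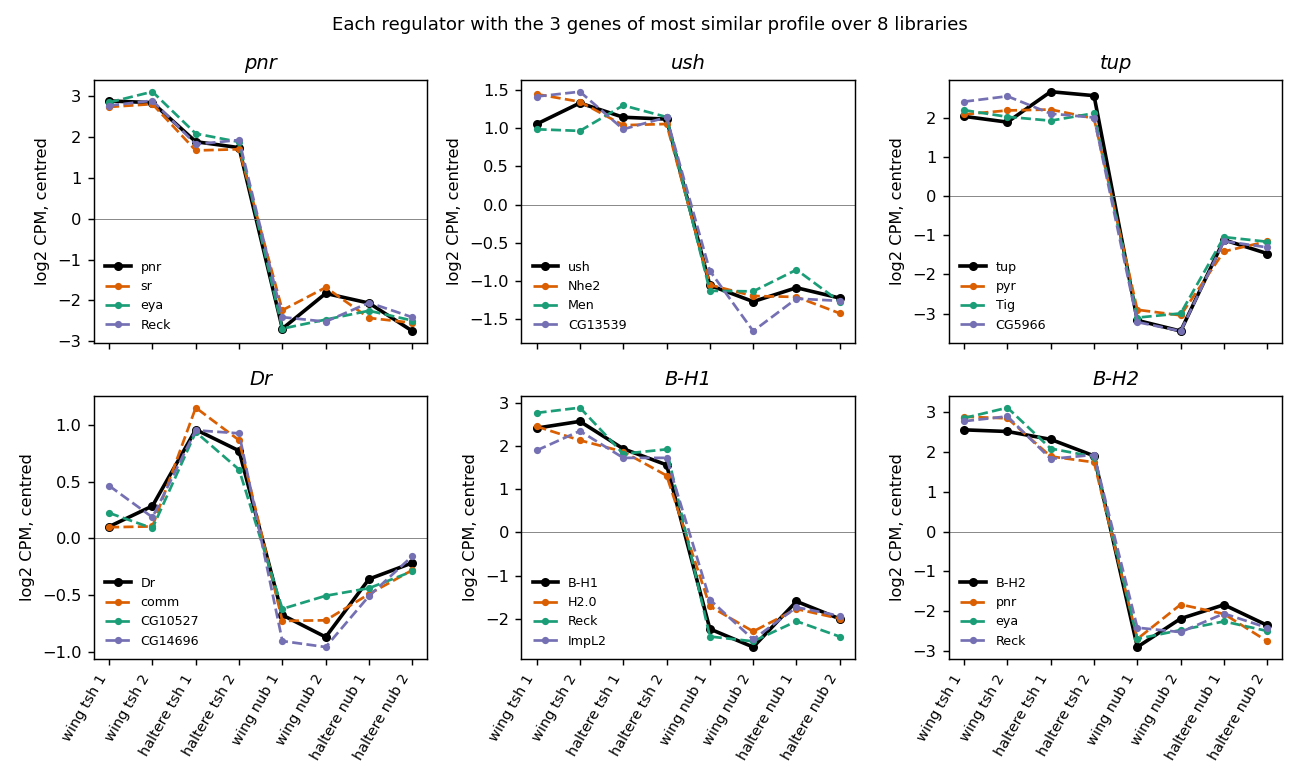
Centred log2(CPM + 0.5) of each regulator (black) and of the 3 genes with the nearest profile (dashed) over the 8 libraries. The profile of pnr falls with those of sr, eya and Reck, that of tup stays higher in haltere nub than in wing nub libraries, and that of Dr peaks in the haltere tsh libraries.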

How the data were processed

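RNA-seq libraries were 8 of the 36 samples of the series; the other samples, 17 of ATAC-seq and 11 of ChIP-seq, were not used here. Per the labels' protocols, the sorted cells gave RNA by TRIZOL extraction and libraries by a Nugen Ovation kit. The deposited values are raw counts per FlyBase gene, 1 library per file. HISAT2, Bowtie2, bcl2fastq, deepTools and dm6 are named, without role or version, per the submitters' processing notes, and the counting tool is not given in the sources used here. Symbols were matched for 17710 of 17807 IDs, and coordinates come from RefSeq on Release 6, of which dm6 is a build.

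Counts were fitted in edgeR 4.0.16 (R 4.3.3) with filterByExpr, TMM scaling and a robust quasi-likelihood model of 4 groups over all 8 libraries, leaving 4 residual degrees of freedom. Tests were two-sided, with Benjamini-Hochberg adjustment over all 11198 genes and calls at an adjusted p under 0.05. CPM used the totals of tested genes. The procedure was tested on simulated data. DESeq2 1.42.0 and other alternatives are given at the end. In all 4 groups the replicates were further apart than counting error allows (chi-square per gene between 9.00 and 31.4). The regulators and lists were chosen with earlier results of these data known. Of each list, up to 4 genes with the smallest adjusted p were to be named, beside the regulators, the marker genes nub, tsh, Ubx and Antp, and the 3 nearest profiles of each regulator. GATAd, GATAe, srp, NK7.1, l(1)sc and other list genes given for their count or absence of a call were named after their values were seen. Med had no matching ID in the files and was not analysed here.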

Additional observations from a re-analysis of the deposited data

Results flagged for a closer look

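The step from tsh to nub cells differed between the discs for tup, with an interaction of 1.74 on the log2 scale (haltere minus wing, adjusted p = 0.0015 in edgeR's quasi-likelihood test). It also differed for B-H1, with an interaction of 2.00 (adjusted p = 0.0174), which was lost without haltere nub replicate 1 (1.63, adjusted p = 0.0628) or wing nub replicate 2 (1.58, adjusted p = 0.0886). Both were called by a test of the difference itself. In each group 2 libraries were available, so that no single library could be tested as standing apart from its group.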

How the results depend on the processing

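Of 414 values of the 6 regulators under the alternatives, 386 kept their direction and their side of the threshold, among them all 168 of nub against tsh cells. The sign changed for 8 values, none of them called. With haltere nub thinned, ush had -0.0263 in nub cells. Without single libraries ush ranged from -0.200 to 0.0777 in tsh cells, from -0.10 to 0.117 in nub cells and from -0.0722 to 0.205 in the interaction, and pnr from -0.690 to 0.41 in nub cells. Calls were gained for pnr in tsh cells with DESeq2 (-1.06), thinning (-1.05) and only the groups compared (-1.05). B-H1 gained them without a filter in tsh cells (-0.71) and nub cells (1.25), and with thinning in nub cells (1.65).

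Without single libraries, values in tsh cells ranged from -1.13 to -0.98 for pnr, from 0.58 to 0.73 for tup and from 0.57 to 0.76 for Dr. In nub cells they ranged from 0.39 to 0.59 for Dr and from 0.81 to 1.86 for B-H1, and in the interaction from 1.58 to 2.61 for B-H1. The cause of these moves was not tested.

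Called genes numbered 1549 between domains in the wing disc (905 to 2718 without single libraries, 907 with only the groups compared) and 2790 in the haltere disc (1456 to 3737). It was 365 between discs in tsh cells (177 to 1621, 720 with DESeq2, 241 with only the groups compared), 2614 in nub cells (1176 to 3664, 3952 with only the groups compared) and 1727 for the interaction (695 to 3400). Of 1794 list counts, 1621 stayed within 1.5 times. With the replicate number as a block, the counts were 1438, 2696, 315, 2476 and 1562, and no call of a regulator changed. The correlations of replicate differences between groups lay between -0.112 and 0.177, so the numbers were not taken to pair samples. Depth limits the Bar genes and tup in wing nub cells, at 4 to 25 counts a library.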
